A study of Mus musculus with 9 samples.

Results

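The 9 glutathione transferase genes followed here were Gstm1, Gstm2 and Gstm5 of the mu class, Gsta4 of the alpha class, Gstt1 and Gstt2 of the theta class, Gsto1 of the omega class, Gstz1 of the zeta class and the membrane enzyme Mgst1. A probe set, the group of short probes that an Affymetrix array uses to read a transcript, was taken when its only gene symbol in the platform annotation was one of these names. That gave 14 probe sets of the 12422 on the array that are not controls. The arrays held ventricular RNA (both ventricles together) of 9 female mice at the age of 3 months, with an array for each mouse. A transgenic insulin-like growth factor 1 receptor was present in every mouse, and the 3 mice of the IGF1R group had no further transgene. The 3 IGF1R-caPI3K mice also had a constitutively active p110 form of the lipid kinase PI3K, and the 3 IGF1R-dnPI3K mice a dominant negative p110 form. The strain, the promoters that drive the transgenes and the number of founder lines were not given in the sources used. The labels also name mice with only a PI3K transgene and non-transgenic littermates, which were not analysed here, so no value is relative to a normal heart.

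Glutathione transferases join the tripeptide glutathione to reactive chemicals such as lipid aldehydes, quinones and epoxides, and the conjugates are then exported from the cell. Most of the classes are soluble enzymes named after Greek letters, while the microsomal enzymes sit in membranes. In the heart the substrates of interest are products of lipid peroxidation, and the transcription factor Nrf2, acting at antioxidant response elements, is a known inducer of several family members. The PI3K pathway acts below the receptor, so the 3 groups address how transcripts respond when receptor signalling meets a more or a less active kinase.

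Values are the deposited signals, a linear intensity per probe set and array whose trimmed mean was 500.3 to 500.4 on every array. Differences are on the log2 scale, given with their standard error (SE), from 1 limma fit over all 9 arrays. The p-values are limma's, adjusted by the Benjamini-Hochberg method over the 7898 probe sets tested, and a difference passed at an adjusted p under 0.05. Precision is limited by having 3 arrays in a group. The CreX hybridisation control had a 3'/5' signal ratio of 1.05 to 1.26 in the IGF1R group, 1.74 to 1.89 in the IGF1R-caPI3K group and 1.79 to 1.83 in the IGF1R-dnPI3K group. That of Gapdh was 0.747 to 0.818, 0.843 to 0.873 and 0.844 to 0.943 in the same order. Neither ratio overlapped between the IGF1R arrays and the others, so for both comparisons with IGF1R mice the genotype and whatever set these ratios cannot be told apart. IGF1R-dnPI3K replicate 3 stood apart, with a mean correlation of 0.927 to the other arrays against 0.947 to 0.956 for the rest. The 3'/5' ratio of the pyruvate carboxylase control reached 3.25 there, and the other 8 arrays had 1.40 to 2.11. It was 1.79 to 3.25 on the IGF1R-dnPI3K arrays and 1.40 to 1.71 on the IGF1R arrays, without overlap, and its part in the differences between these groups was not tested. The median SD of log2 signal was 0.26 among IGF1R-dnPI3K arrays and 0.16 in each other group.

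The promoters of Gstm1 and Gstm2 are shown because their probe sets gave the calls described here, and that of Gstm5, which gave none, for comparison within the cluster. In the RefSeq gene table Gstm2 and Gstm1 are next to each other on chromosome 3, between Gstm3 and Gstm4, and Gstm5 lies at the other end of the cluster beside Gstm7. The sequences are the 250 bases before a start site, 5′ to 3′ on the strand of the gene, from the RefSeq promoter table of build GRCm38.p6. They cover chr3:108017974-108018223 (minus strand) for the upstream start of Gstm1, chr3:107986421-107986670 (minus strand) for Gstm2 and chr3:107895604-107895853 (plus strand) for Gstm5. Capitals mark the antioxidant response element core TGACNNNGC.
Gstm1: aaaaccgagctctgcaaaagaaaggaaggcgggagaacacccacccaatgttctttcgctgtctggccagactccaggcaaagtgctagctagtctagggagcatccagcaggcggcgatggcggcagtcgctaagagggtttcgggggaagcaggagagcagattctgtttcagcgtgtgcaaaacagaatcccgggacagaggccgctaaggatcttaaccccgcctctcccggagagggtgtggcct
Gstm2: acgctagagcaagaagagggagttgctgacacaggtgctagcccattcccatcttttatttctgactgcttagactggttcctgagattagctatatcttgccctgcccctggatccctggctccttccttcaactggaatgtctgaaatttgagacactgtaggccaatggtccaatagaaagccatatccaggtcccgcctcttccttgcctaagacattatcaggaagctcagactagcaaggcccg
Gstm5: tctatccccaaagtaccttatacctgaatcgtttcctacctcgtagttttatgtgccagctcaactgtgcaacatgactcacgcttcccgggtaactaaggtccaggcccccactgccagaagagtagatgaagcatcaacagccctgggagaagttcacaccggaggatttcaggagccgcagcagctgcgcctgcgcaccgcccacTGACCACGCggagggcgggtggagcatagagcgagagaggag
The table held 10 promoters for 7 of the 9 genes, and both strands were searched. The core was present in 2 of the 10, that of Gstm5 and one of Mgst1, against 10.2% of 32851 promoters of the same length. The FoxO motif GTAAACA was in 0 of the 10, against 3.17% of all promoters. Neither motif was found in the Gstm1 or Gstm2 window, and the letters alone do not show whether a factor binds.

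Of the 14 probe sets, 13 passed the filter on dim signals (above the 40th percentile of the array, 98.6 to 119 units, on at least 3 arrays) and were tested. Of these, 11 were above it on all 9 arrays, while Gstt2 was above it on 1 IGF1R, 2 IGF1R-caPI3K and 3 IGF1R-dnPI3K arrays, and Mgst1 on 3, 3 and 1. In IGF1R-dnPI3K against IGF1R hearts 3 of the 13 passed, all higher, where 13.5% of all tested probe sets passed (5.70% higher and 7.80% lower). In IGF1R-caPI3K against IGF1R hearts 0 passed by limma, with 4 at an unadjusted p under 0.05, where 0.215% of all passed (0.152% higher and 0.0633% lower) and 18.4% had such an unadjusted p. Between IGF1R-caPI3K and IGF1R-dnPI3K hearts 1 passed, lower in IGF1R-caPI3K, where 1.24% of all passed (0.734% higher and 0.506% lower). The F test over the 3 groups passed 1 of the 13 against 7.24% of all.

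The median difference of the 13 was 0.30 between IGF1R-dnPI3K and IGF1R hearts, where that of all tested probe sets was -0.094, and 10 of the 13 were above 0. It was 0.12 between IGF1R-caPI3K and IGF1R hearts, where that of all was -0.035, and 11 of the 13 were above 0. For IGF1R-caPI3K against IGF1R-dnPI3K it was -0.23 where that of all was 0.049, and 3 of the 13 were above 0. The comparisons share groups of arrays, so these medians are not independent of each other. Scaling the arrays to a common median moved the median of all tested probe sets for IGF1R-dnPI3K against IGF1R from -0.094 to 0.075 and that of the 13 from 0.30 to 0.47. The same scaling turned the split of all calls in that comparison from 450 higher and 616 lower to 832 higher and 333 lower.

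**Figure D1:**
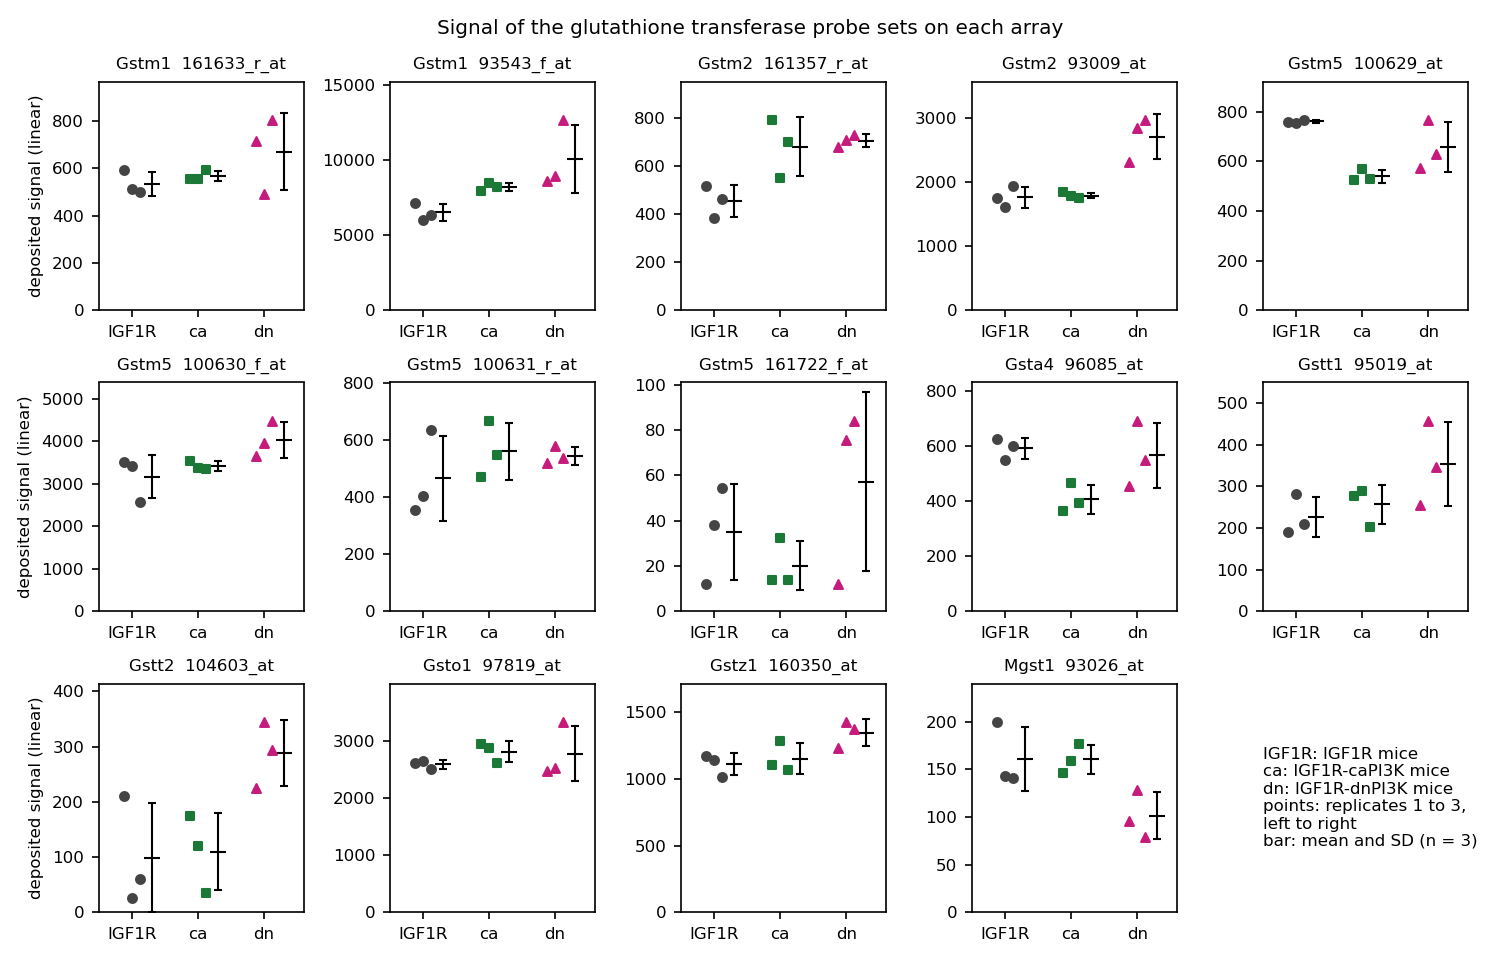
Deposited signal (linear axis from 0, its own scale in each panel) of the 14 glutathione transferase probe sets on each of the 9 arrays, with the mean and SD of each group (n = 3). The Gstm2 probe set 93009_at lies at 2314.3 to 2976.9 in IGF1R-dnPI3K hearts and at 1610 to 1935.1 in the other 6, while 161357_r_at of the same gene is also high in IGF1R-caPI3K hearts.

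Gstm2, a mu class enzyme, was the only one of the genes to pass the F test (probe set 93009_at, adjusted p = 0.0267). The signal of 93009_at was 1754.9, 1610 and 1935.1 in IGF1R hearts, 1840.7, 1782.8 and 1752.1 in IGF1R-caPI3K hearts and 2314.3, 2842.1 and 2976.9 in IGF1R-dnPI3K hearts. All 3 IGF1R-dnPI3K hearts were above the other 6, and the other 2 groups overlapped. The means were 1767 ± 163, 1792 ± 45.0 and 2711 ± 350 (SD, n = 3 each). Gstm2 on this probe set rose in IGF1R-dnPI3K against IGF1R hearts by 0.61 ± 0.12, a fold of 1.53 (limma adjusted p = 0.0163). It was lower in IGF1R-caPI3K than in IGF1R-dnPI3K hearts by -0.59 ± 0.12, a fold of 0.665 (limma adjusted p = 0.0463). IGF1R-caPI3K against IGF1R hearts gave 0.024, with a 95% interval of -0.24 to 0.29 (limma adjusted p = 0.937).

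The second Gstm2 probe set, 161357_r_at, gave another pattern in IGF1R-caPI3K hearts. Its signal was 516, 384.1 and 461.6 in IGF1R hearts, 792.1, 551.3 and 697.9 in IGF1R-caPI3K hearts and 676.9, 709.5 and 729.6 in IGF1R-dnPI3K hearts. Here both groups with a PI3K transgene lay above all IGF1R hearts and overlapped each other. The rise in IGF1R-dnPI3K hearts was 0.65 ± 0.16, a fold of 1.56 (limma adjusted p = 0.0289). The difference of IGF1R-caPI3K from IGF1R hearts was 0.58 ± 0.16 and did not pass (limma adjusted p = 0.110), and that from IGF1R-dnPI3K hearts was -0.067 with a 95% interval of -0.42 to 0.29. The probe sets therefore gave like values for IGF1R-dnPI3K against IGF1R and unlike values for the active kinase. The suffix r in a probe set name marks a set built with relaxed probe selection rules, and f one whose probes can match several members of a gene family.

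Gstm1, the broadly expressed mu class enzyme, had its bright probe set 93543_f_at at 7148.9, 6023.7 and 6380.1 in IGF1R hearts. It was at 7945.9, 8458.8 and 8193.5 in IGF1R-caPI3K hearts and at 8606.4, 8912.6 and 12692.5 in IGF1R-dnPI3K hearts. No pair of groups overlapped, with IGF1R lowest and IGF1R-dnPI3K highest, and a single IGF1R-dnPI3K array, replicate 3, was far above its group. The rise in IGF1R-dnPI3K against IGF1R hearts was 0.61 ± 0.14, a fold of 1.52 with a 95% interval of 0.29 to 0.93 on the log2 scale (limma adjusted p = 0.0249). The difference was 0.33 ± 0.14 for IGF1R-caPI3K against IGF1R (limma adjusted p = 0.253) and -0.27 ± 0.14 for IGF1R-caPI3K against IGF1R-dnPI3K (limma adjusted p = 0.399). Without IGF1R-dnPI3K replicate 3 the first of these stayed at 0.33 and passed (limma adjusted p = 0.0321). That fit passed 7.03% of all tested probe sets for IGF1R-caPI3K against IGF1R, beside 0.215% as reported. On IGF1R-dnPI3K replicate 3 the cardiomyocyte genes Tnni3, Myl3, Myh6, Myl2 and Tnnt2 also had their highest signals of the 9 arrays, such as 31751.8 for Myl2. The cardiomyocyte genes Actc1 and Ryr2 did not, at 18567.1 and 4065.7 there. In IGF1R hearts they were at 17306.1 to 20171.5 and 6733 to 7196.8. The part of these genes in the result was not tested. Like any f set, 93543_f_at can take part of its signal from other mu class transcripts. Quantile normalization, which gives all arrays 1 distribution of signal, lowered the Gstm1 difference from 0.61 to 0.30 (limma adjusted p = 0.0647).

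The other Gstm1 probe set, 161633_r_at, had signals of 591.1, 511.5 and 500.2 in IGF1R hearts, 556.7, 553.3 and 593.6 in IGF1R-caPI3K hearts and 716.7, 490.1 and 805.4 in IGF1R-dnPI3K hearts. The groups overlapped, and IGF1R-dnPI3K replicate 2 was the lowest of all 9 hearts. IGF1R-dnPI3K against IGF1R gave 0.30 ± 0.18 and did not pass (limma adjusted p = 0.265). Without IGF1R-dnPI3K replicate 2 it was 0.51 and passed (limma adjusted p = 0.0447). That fit passed 11.4% of all tested probe sets in this comparison, beside 13.5% as reported.

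The 3 calls in IGF1R-dnPI3K against IGF1R hearts depended on the IGF1R arrays. A block for the series of the mouse number in the titles, whose meaning the labels do not state, was also fitted. With that block Gstm2 gave 0.31 on 93009_at and 0.45 on 161357_r_at, and Gstm1 gave 0.44 on 93543_f_at. The difference of Gstm2 on 93009_at between the PI3K groups became -0.28. IGF1R-dnPI3K replicates 2 and 3 alone hold their number series, so these values rest on replicate 1 of that group. The calls were lost in that fit, which cannot decide whether they hold. Gstm2 on 93009_at gave 0.61 without IGF1R replicate 1, 0.55 without replicate 2 and 0.68 without replicate 3, with limma adjusted p-values of 0.0503, 0.0559 and 0.0527. Gstm2 on 161357_r_at gave 0.74, 0.53 and 0.66 in that order (limma adjusted p = 0.0503, 0.0907 and 0.0826), and Gstm1 on 93543_f_at gave 0.68, 0.55 and 0.59 (limma adjusted p = 0.0523, 0.0799 and 0.0827). The calls were lost in each case while the differences kept their direction. These 3 fits passed 2.70%, 2.56% and 0.986% of all tested probe sets in this comparison, beside 13.5% as reported. Without IGF1R-dnPI3K replicate 3, Gstm2 on 93009_at gave 0.54 and Gstm1 0.43, and both passed, while Gstm2 on 161357_r_at gave 0.62 and did not (limma adjusted p = 0.0632). Without IGF1R-dnPI3K replicate 2 the latter gave 0.64 and did not pass either (limma adjusted p = 0.0559). The call of Gstm2 on 93009_at between the 2 PI3K groups was kept without IGF1R-dnPI3K replicate 1, at -0.70, and lost without any one of the other 8 arrays, at -0.61 to -0.52. Of all tested probe sets the first of these fits passed 6.87% and the others 0.128% to 0.832%, beside 1.24% as reported.

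**Figure D2:**
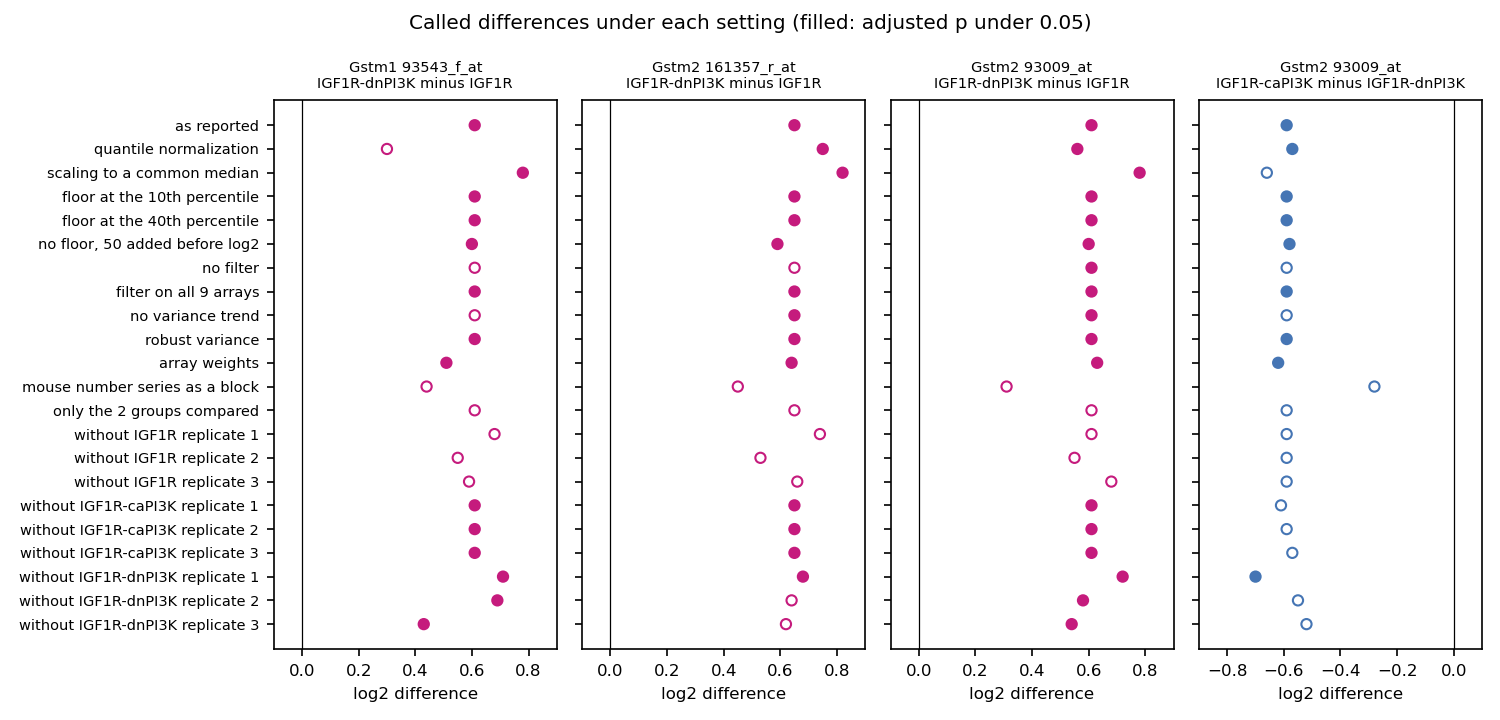
Log2 difference of the called Gstm1 and Gstm2 probe sets as reported and under 21 other settings (x axis, log2 units). Filled points had a limma adjusted p under 0.05; the Gstm2 probe set 93009_at in IGF1R-dnPI3K against IGF1R hearts passed under 16 of the 21 and each other panel under fewer, while all points of a panel stay on 1 side of 0.

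Gstm5, the mu class gene at the other end of the cluster, had 4 probe sets, which did not move alike. On 100629_at the signal was 758.8, 755.9 and 767.5 in IGF1R hearts, 523.4, 570.2 and 527.8 in IGF1R-caPI3K hearts and 572.5, 766.7 and 630.1 in IGF1R-dnPI3K hearts. All IGF1R-caPI3K hearts lay below both other groups. The difference from IGF1R was -0.49 ± 0.13, a fold of 0.710 that did not pass (limma adjusted p = 0.103), and from IGF1R-dnPI3K -0.27 ± 0.13 (limma adjusted p = 0.357). Without IGF1R-dnPI3K replicate 3 the first of these stayed at -0.49 and passed (limma adjusted p = 0.0461). That array enters this comparison only through the shared spread, the floor, the filter and the adjustment. The fit without it passed 7.03% of all tested probe sets in this comparison, beside 0.215% as reported. On 100630_f_at the signal was 3522.7, 3411.6 and 2581.9, then 3549.7, 3366.4 and 3348.3, then 3646.6, 3964.8 and 4488.9, in the same order of groups. Here the IGF1R-dnPI3K hearts were above the other 6, at 0.35 ± 0.13 over IGF1R (limma adjusted p = 0.0955). This probe set carries the f suffix, so part of its signal can come from other mu class transcripts.

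The third Gstm5 probe set, 100631_r_at, ran from 355.2 to 666.9 with all groups overlapping. Its differences were 0.30 ± 0.21 for IGF1R-caPI3K and 0.27 ± 0.21 for IGF1R-dnPI3K against IGF1R, and 0.027 between the PI3K groups (limma adjusted p = 0.476, 0.398 and 0.968). The fourth, 161722_f_at, was below the filter on every array, at 11.9 to 84.2, and was not tested. Its signals were at the level of the 9 Y-linked probe sets, which reached 63.9 in these female hearts, on all but 2 IGF1R-dnPI3K arrays.

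Gsta4, the alpha class enzyme that conjugates the lipid aldehyde 4-hydroxynonenal, had a signal of 625.8, 550.4 and 601.4 in IGF1R hearts. It was 363.7, 467 and 394.7 in IGF1R-caPI3K hearts and 457.7, 693.7 and 551.8 in IGF1R-dnPI3K hearts. The IGF1R-caPI3K hearts were all below the IGF1R hearts, and the IGF1R-dnPI3K hearts spread across both. The difference of IGF1R-caPI3K from IGF1R was -0.54 ± 0.17, a fold of 0.687 (limma adjusted p = 0.134), and that from IGF1R-dnPI3K was -0.46 ± 0.17 (limma adjusted p = 0.228). IGF1R-dnPI3K against IGF1R gave -0.081 with a 95% interval of -0.45 to 0.29, and 0.089 after scaling to a common median.

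The groups of 4 of the 13 probe sets did not overlap between IGF1R-caPI3K and IGF1R hearts, where 32.8% of all tested probe sets did not: Gstm1 93543_f_at and Gstm2 161357_r_at were higher, and Gstm5 100629_at and Gsta4 lower. Some settings passed these differences. With only the 2 groups compared in the fit, Gstm1 at 0.33, Gstm5 at -0.49 and Gsta4 at -0.54 passed (limma adjusted p = 0.0314, 0.0191 and 0.0325), and that fit passed 9.70% of all probe sets. With array weights all 4 passed, and 9.84% of all.

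Gstt1, a theta class enzyme, had a signal of 191.1, 282.1 and 210.3 in IGF1R hearts, 277, 289.8 and 203.6 in IGF1R-caPI3K hearts and 255.8, 458.1 and 347.5 in IGF1R-dnPI3K hearts. The 3 groups overlapped, with 2 of the 3 IGF1R-dnPI3K hearts above all others. IGF1R-dnPI3K against IGF1R gave 0.61 ± 0.24, a fold of 1.53 like that of Gstm2 with a wider error (limma adjusted p = 0.111). Without IGF1R-dnPI3K replicate 1 it was 0.83 and passed (limma adjusted p = 0.0309). That fit passed 23.7% of all tested probe sets in this comparison, beside 13.5% as reported.

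Gstt2, its theta class neighbour on chromosome 10, had a signal of 210.9, 26 and 60.7 in IGF1R hearts, 173.6, 120.5 and 36 in IGF1R-caPI3K hearts and 225.1, 345.1 and 294.3 in IGF1R-dnPI3K hearts. Every IGF1R-dnPI3K heart was above the other 6, of which 3 were at or below 63.9, the highest Y-linked signal. IGF1R-dnPI3K against IGF1R gave 1.93 ± 0.68, with a 95% interval of 0.42 to 3.43, and did not pass (limma adjusted p = 0.0801). The size rests on values near background: with the floor raised to the 40th percentile it was 1.05 and passed (limma adjusted p = 0.0363). IGF1R-caPI3K against IGF1R-dnPI3K gave -1.64 ± 0.68 (limma adjusted p = 0.288).

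Gsto1, the omega class enzyme that reduces rather than conjugates, for example dehydroascorbate, had a signal of 2602.5, 2643.8 and 2500 in IGF1R hearts. It was 2945.2, 2866.4 and 2602.7 in IGF1R-caPI3K hearts and 2467.7, 2520.1 and 3329.3 in IGF1R-dnPI3K hearts. All groups overlapped, and IGF1R-dnPI3K replicate 3 was again the highest array. The differences were 0.12 with a 95% interval of -0.16 to 0.40 for IGF1R-caPI3K and 0.089 with -0.19 to 0.37 for IGF1R-dnPI3K, both against IGF1R (limma adjusted p = 0.654 and 0.661).

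Mgst1, the membrane enzyme of the endoplasmic reticulum and mitochondria, was the one gene whose IGF1R-dnPI3K hearts were all below the other 6. The signal was 199.9, 143.2 and 140.5 in IGF1R hearts, 145.8, 158.4 and 176.8 in IGF1R-caPI3K hearts and 96.1, 128.2 and 79.4 in IGF1R-dnPI3K hearts. The differences were -0.68 ± 0.26 for IGF1R-dnPI3K against IGF1R (limma adjusted p = 0.0976) and 0.69 ± 0.26 for IGF1R-caPI3K against IGF1R-dnPI3K (limma adjusted p = 0.244), and neither passed. The signals are dim, and only 1 IGF1R-dnPI3K array was above the filter.

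Between IGF1R-dnPI3K and IGF1R hearts the groups of 7 of the 13 probe sets did not overlap, where 34.4% of all tested probe sets did not. Mgst1 was the lower one, and the higher ones were both Gstm2 probe sets, Gstm1 93543_f_at, Gstm5 100630_f_at, Gstt2 and Gstz1. An unadjusted limma p under 0.05 was reached by 8 of the 13, where 32.2% of all did. Between IGF1R-caPI3K and IGF1R-dnPI3K 6 of the 13 did not overlap, where 19.5% of all did not.

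**Figure D3:**
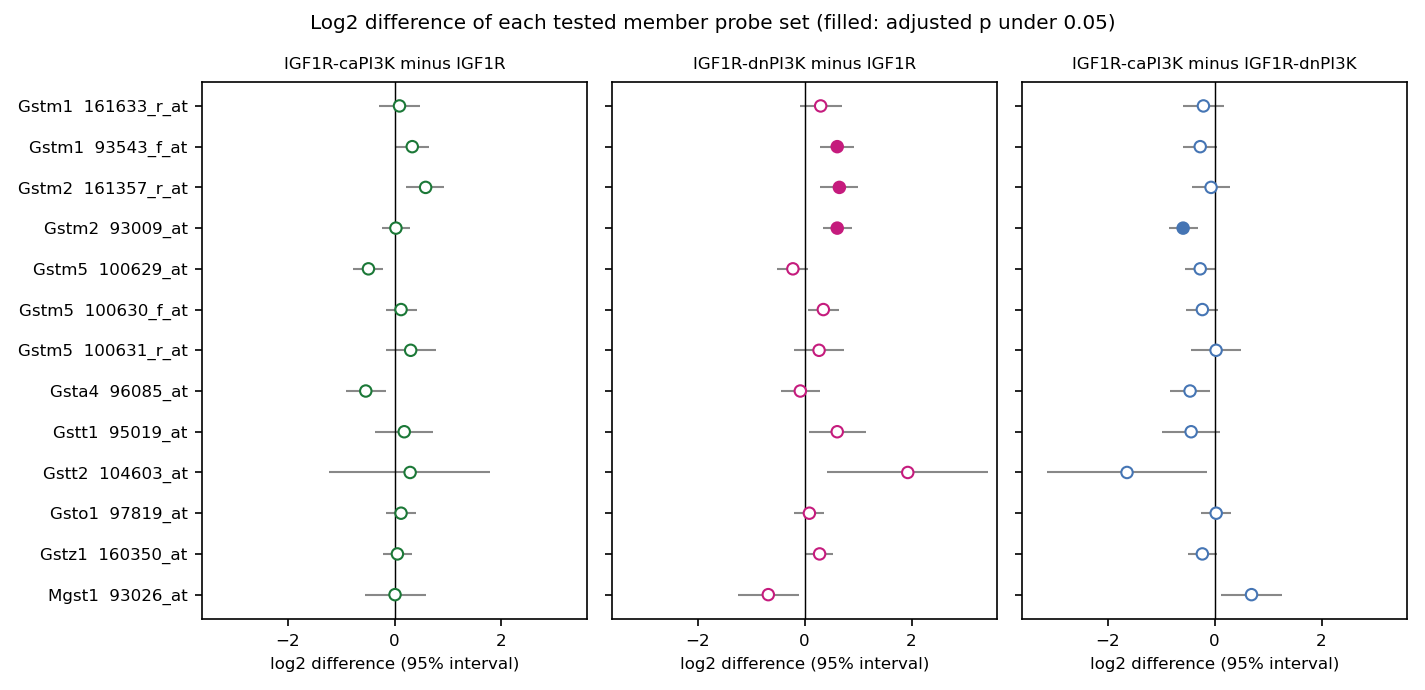
Log2 difference (points, x axis in log2 units) with its 95% interval (lines) for the 13 tested probe sets in the 3 comparisons. Filled points had a limma adjusted p under 0.05: 3 in IGF1R-dnPI3K against IGF1R hearts, 1 in IGF1R-caPI3K against IGF1R-dnPI3K and 0 in IGF1R-caPI3K against IGF1R.

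Gstz1, also called maleylacetoacetate isomerase, carries out the last step but one of tyrosine breakdown. Its signal was 1168.8, 1146.2 and 1014.4 in IGF1R hearts, 1104, 1283.2 and 1069.2 in IGF1R-caPI3K hearts and 1233.9, 1430 and 1373.7 in IGF1R-dnPI3K hearts. The IGF1R-dnPI3K hearts were all above the IGF1R hearts, by 0.28 ± 0.12, and the difference did not pass (limma adjusted p = 0.137; 0.45 and 0.0481 after scaling to a common median). Fah, fumarylacetoacetate hydrolase, the enzyme of the next and last step, had signals of 800.9, 608.5 and 678.7, then 815.8, 663 and 613.8, then 1042.4, 1436.3 and 1754.8. Fah rose in IGF1R-dnPI3K against IGF1R hearts by 1.00 ± 0.19 (limma adjusted p = 0.0162) and was lower in IGF1R-caPI3K than in IGF1R-dnPI3K hearts by -0.99 ± 0.19 (limma adjusted p = 0.0378). It was the only one of the 2 tested genes of the tyrosine list to pass.

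The other genes of the pathway came from 7 lists of 117 genes, of which 80 had a probe set with 1 symbol and 60 were tested on their brightest one. Between IGF1R-dnPI3K and IGF1R hearts 3 of the 60 rose and 9 fell, where 5.70% of all tested probe sets rose and 7.80% fell. The same shares stand beside the counts of each single list in this comparison. Among the 60, 0 passed by limma between IGF1R-caPI3K and IGF1R, with 10 at an unadjusted p under 0.05, where 18.4% of all had such a p. In IGF1R-caPI3K against IGF1R-dnPI3K hearts 2 were higher and 1 lower, where 0.734% of all were higher and 0.506% lower. The median difference of the 60 for IGF1R-dnPI3K against IGF1R was -0.089, beside -0.094 for all tested probe sets.

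Among 9 other tested transferases and relatives, 1 rose in IGF1R-dnPI3K against IGF1R hearts. That was Gstk1, the kappa class enzyme of mitochondria and peroxisomes, at 1177, 735.1 and 1124.8 in IGF1R hearts and 1767.1, 1926.1 and 1386.9 in IGF1R-dnPI3K hearts, with no overlap. Its difference was 0.76 ± 0.20 (limma adjusted p = 0.0312). Gstp1, the pi class enzyme, gave 0.27 ± 0.11 and Mgst3 0.46 ± 0.16 without passing (limma adjusted p = 0.123 and 0.0825). Gstm3, between Gstm6 and Gstm2 in the mu cluster, gave -0.080 (limma adjusted p = 0.772).

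Of 9 tested genes of glutathione synthesis and turnover, 2 fell in IGF1R-dnPI3K hearts. Gclm, the modifier subunit of the rate-limiting enzyme of glutathione synthesis, was at 353, 311.8 and 340.3 in IGF1R hearts and 198.2, 251.8 and 205 in IGF1R-dnPI3K hearts, a difference of -0.62 ± 0.17 (limma adjusted p = 0.0371). Anpep, an aminopeptidase that trims the products of glutathione breakdown, fell by 0.71 on the log2 scale (limma adjusted p = 0.0348). The IGF1R and IGF1R-dnPI3K hearts did not overlap for either gene. IGF1R-caPI3K against IGF1R gave -0.27 for Gclm and -0.27 for Anpep, and neither passed (limma adjusted p = 0.427 and 0.472).

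Of 6 tested peroxidases and redoxins, 1 rose and 2 fell. Gpx3, the secreted glutathione peroxidase, had a mean signal of 5751 ± 1154 in IGF1R hearts, against 8791 ± 854 with caPI3K and 8858 ± 1475 with dnPI3K (SD, n = 3 each). Its difference from IGF1R was 0.63 ± 0.17 in both PI3K groups, which passed in IGF1R-dnPI3K hearts (limma adjusted p = 0.0340) and did not in IGF1R-caPI3K hearts (limma adjusted p = 0.103). Glrx, which removes glutathione from protein thiols, fell in IGF1R-dnPI3K hearts by 0.56 (limma adjusted p = 0.0162). Pdia3, a disulfide isomerase of the endoplasmic reticulum, fell by 1.49 (limma adjusted p = 0.0219), with IGF1R-dnPI3K signals of 1169.1, 761.8 and 355.3. In IGF1R-caPI3K against IGF1R hearts Glrx gave -0.42 and Pdia3 -0.88 without passing (limma adjusted p = 0.103 and 0.205). Between the PI3K groups neither gene passed (limma adjusted p = 0.551 and 0.423).

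Of 6 tested genes of the glyoxalase route and of conjugate export, 2 fell: Hagh, the glyoxalase that releases glutathione, at -0.43 ± 0.13, and Abcc3, a membrane pump for conjugates, at -1.14 ± 0.34 (limma adjusted p = 0.0479 and 0.0483). IGF1R-caPI3K against IGF1R gave -0.29 for Hagh and -0.14 for Abcc3, and neither passed (limma adjusted p = 0.256 and 0.860). Of 13 other phase 1 and 2 enzymes 0 passed by limma in any of the 3 comparisons. An unadjusted p under 0.05 was reached by 5 for IGF1R-caPI3K against IGF1R, 4 for IGF1R-dnPI3K against IGF1R and 3 between the PI3K groups. Of all tested probe sets 18.4%, 32.2% and 15.4% reached it in that order. The lowest p among the 13 enzymes was that of Ephx2, soluble epoxide hydrolase, at -0.73 ± 0.21 for IGF1R-caPI3K against IGF1R (limma adjusted p = 0.123).

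Of 15 tested Nrf2 targets and regulators, 3 fell and 0 rose in IGF1R-dnPI3K against IGF1R hearts, where 7.80% of all tested probe sets fell and 5.70% rose. The median of the 15 was -0.11, beside -0.094 for all, and they ran from -0.70 to 0.66. Whether Nrf2 has a part in the Gstm1 and Gstm2 differences was not tested. Hmox1, heme oxygenase 1, was at 1213.5, 1080.1 and 1208.9 in IGF1R hearts, 1112.2, 1363.6 and 1400.8 in IGF1R-caPI3K hearts and 869.8, 858.4 and 825.8 in IGF1R-dnPI3K hearts. It fell by 0.45 on the log2 scale (limma adjusted p = 0.0350) and was higher in IGF1R-caPI3K than in IGF1R-dnPI3K hearts by 0.59 ± 0.12 (limma adjusted p = 0.0427). Nqo1, a quinone reductase, gave -0.61 ± 0.17 and 0.84 ± 0.17 in these comparisons on its brightest probe set (limma adjusted p = 0.0423 and 0.0444), and -0.58 and 0.61 on another, which did not pass (limma adjusted p = 0.109 and 0.244). Txnrd1, thioredoxin reductase, fell by 0.70 (limma adjusted p = 0.0299). Its difference for IGF1R-caPI3K against IGF1R was -0.37 and did not pass (limma adjusted p = 0.290).

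**Figure D4:**
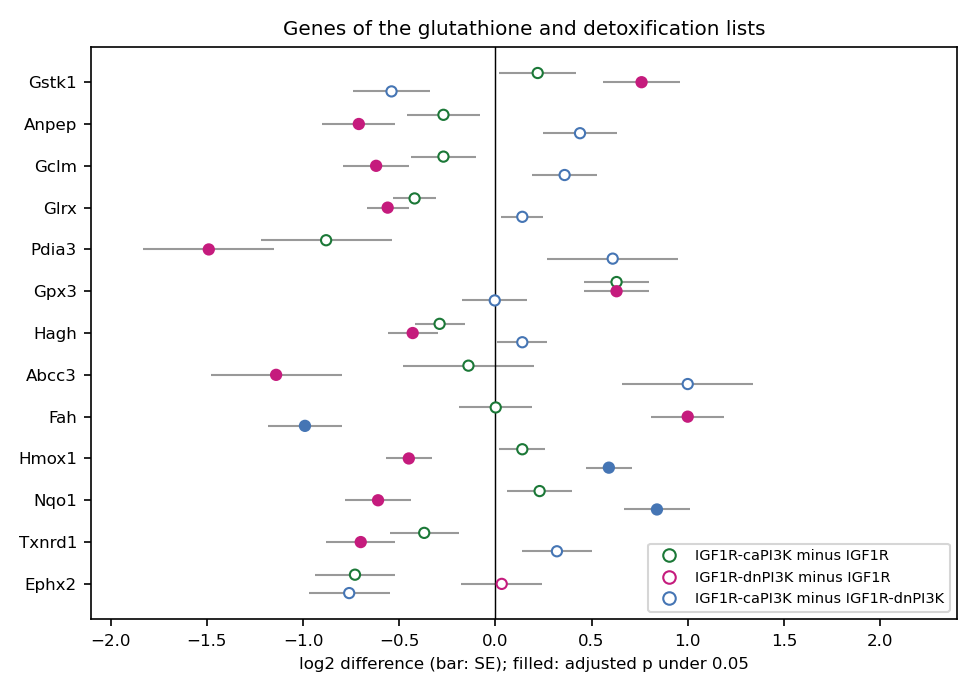
Log2 difference (points, x axis in log2 units) with its SE (lines) for the 13 named genes of the pathway lists in the 3 comparisons, each on its brightest probe set. Filled points had a limma adjusted p under 0.05; in IGF1R-dnPI3K against IGF1R hearts Gstk1, Gpx3 and Fah are filled to the right of 0 and 9 genes to its left.

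These 12 calls between IGF1R-dnPI3K and IGF1R hearts also depended on single arrays and on the settings of the fit. Without IGF1R replicate 1 Fah alone passed, and without replicate 2 or replicate 3 0 of the 12 did, the values then running from -1.63 to 1.10, -1.53 to 0.90 and -1.32 to 0.98. These 3 fits passed 2.70%, 2.56% and 0.986% of all tested probe sets, beside 13.5% as reported. An IGF1R-caPI3K array enters this comparison only through the shared spread, the floor, the filter and the adjustment. Leaving out 1 such array lost 5 of the 12 in each case. Without IGF1R-dnPI3K replicate 1, 2 or 3, the test lost 5, 4 and 6 of them. The 3 differences between the PI3K groups passed only without IGF1R-dnPI3K replicate 1 among these 9 fits. Of the 12, 0 passed with only the 2 groups compared in the fit. With the block for the mouse number the values ran from -1.27 to 0.69. They then rest on IGF1R-dnPI3K replicate 1, so that fit, in which the calls were lost, cannot decide whether they hold. The test lost 11 with no filter on dim probe sets, with Glrx kept, 7 with no variance trend and 6 after quantile normalization. After scaling to a common median 7 of the 12 were lost, all of them genes that fell, while Pdia3 and Txnrd1 and the 3 that rose passed.

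The genes of likest pattern were sought for the 2 probe sets with the lowest F-test p, as the highest Pearson correlation of log2 signal over the 9 arrays among the brightest probe sets of all other tested genes. For Gstm2 on 93009_at these were Selenbp1, a selenium-binding protein (r = 0.97), Mlycd, malonyl-CoA decarboxylase (0.96), Car14, a membrane carbonic anhydrase (0.96), Lipe, hormone-sensitive lipase (0.96), and Fah (0.96). With the group means taken out the correlations were 0.87, 0.89, 0.77, 0.89 and 0.78 in that order. The genes were chosen for their correlation over these same arrays, which raises both sets of values. The points share the arrays and their scaling, and no test was made. All 5 passed as higher in IGF1R-dnPI3K against IGF1R hearts, with Car14 at 1.39 ± 0.24 and Mlycd at 0.74 ± 0.16 (limma adjusted p = 0.0117 and 0.0193). Of all tested probe sets 5.70% did. The choice by likeness to 93009_at, itself higher in these hearts, favours such calls, so they are no separate result.

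For the other Gstm2 probe set, 161357_r_at, the likest were Gabarapl1, an autophagy protein (0.95), Slc2a8, a glucose transporter (0.94), Sncg, gamma-synuclein (0.94), Epn2, an endocytic adaptor (0.94), and Miip (0.94). These shared the higher values in both PI3K groups: the mean signal of Gabarapl1 was 1836 ± 187 in IGF1R hearts, against 2564 ± 150 with caPI3K and 2548 ± 123 with dnPI3K (SD, n = 3 each). No gene was among the likest of both Gstm2 probe sets.

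**Figure D5:**
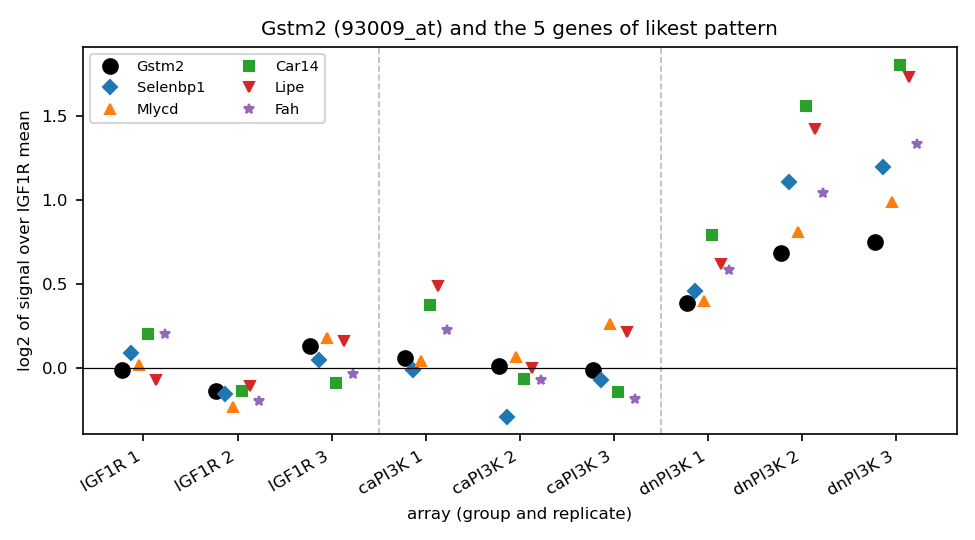
Signal of Gstm2 (93009_at) and of its 5 genes of likest pattern on each array, as log2 of the signal over the mean of the IGF1R arrays (y axis) by array (x axis). All 6 genes lie highest on the IGF1R-dnPI3K arrays, and for each of them replicate 1 is the lowest of that group.

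Some cell type markers also differed between the groups, and their relation to the transferase signals was not tested. In these bulk samples fewer cells of a type and less RNA per cell cannot be told apart. The summed signal of 7 cardiomyocyte markers was 121569 to 132029 on IGF1R arrays, 130095 to 136345 with caPI3K and 142375 to 170515 with dnPI3K, so that the dnPI3K arrays were highest here as they were for the Gstm1 probe set 93543_f_at, and 3 of the markers rose and 1 fell in IGF1R-dnPI3K against IGF1R hearts. That of 7 fibroblast markers was 29427 to 32118, 31719 to 35447 and 21558 to 25302, and 4 of the 7 fell. Of 8 macrophage markers on the array 6 were tested and 3 fell, with sums of 5437 to 6333, 6071 to 6264 and 3327 to 4956. Endothelial markers, 7 in all, had sums of 6660 to 8111, 5729 to 6088 and 5701 to 7034, and 1 rose and 2 fell. Of 6 smooth muscle and pericyte markers 5 were tested, and 0 rose and 0 fell. Their sums were 2514 to 3095, 2340 to 2586 and 2832 to 4150.

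Other marker sums also stood apart between IGF1R and IGF1R-dnPI3K arrays. Those of 8 skeletal muscle markers were 18763 to 20361 and 10691 to 16940, and 1 fell. Most of that signal was Acta1, at 15394.2 to 16992.5 and 7753.4 to 14374.1. Ckm was also lower, while Myh4 and Mylpf overlapped. On all arrays 4 of the 8 were at or below the highest Y-linked signal. Those of 4 atrial markers were 3189 to 3941 and 4290 to 6553, and 1 rose. Most of that signal was Nppa. Myl4 went the other way, at 283.7 to 376.3 and 154.4 to 265.6, and Sln and Myl7 were too dim to be tested. Those of 3 red blood cell markers were 16932 to 18215 and 20611 to 36516. The part of these cell types in the results was not tested.

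Some transferases and Fah are abundant in liver, and 6 liver markers had summed signals of 166 to 371, 174 to 772 and 253 to 590 in the same order of groups. Of the 6 only albumin was bright enough to be tested, at 43.6, 307.1 and 139.2 on the IGF1R-dnPI3K arrays and 560 on IGF1R-caPI3K replicate 1. Whether liver RNA has a part in any of the results was not tested. Of 5 adipocyte markers on the array, Lipe alone passed as higher in IGF1R-dnPI3K against IGF1R hearts, and the sums were 1756 to 2036, 1061 to 1382 and 1942 to 2123. Fabp4 went the other way without passing, at 554.5 to 725.3 in IGF1R and 243 to 511 in IGF1R-dnPI3K hearts. Lep and Adipoq overlapped between these groups, and Retn was too dim to be tested.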

How the data were processed

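RNA from the ventricles was measured on 1-colour Affymetrix arrays, and groups were taken from the sample titles. The deposited table gives 1 linear intensity for each probe set and array. The software behind it and its detection calls were not given in the sources used, and the common trimmed mean (2% cut at each end) was found from the values. Replicates have numbers in order of deposit, which pair no samples. Arrays of a group shared 18 to 29 identical values, so none was a copy.

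Of the probe sets, 10833 had a single symbol in the platform annotation, 396 had several and were not named, and 1193 had none. The 66 controls were left out. Signals under 32.4, the 20th percentile of all positive values, were set to it before log2 (0.346% of the values tested), and 7898 probe sets over the array's 40th percentile on 3 or more arrays entered the tests. limma 3.58.1 (R 4.3.3, statmod 1.5.0) fitted the 9 arrays in a single model with a variance trend and a shared spread. Each contrast and the F test had its own Benjamini-Hochberg adjustment. The model was also run on simulated data with independent noise and the same spread in every group. That run cannot show how the wider spread of the IGF1R-dnPI3K arrays affects the calls. Promoters came from the RefSeq table of build GRCm38.p6.

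The members, the gene lists and the tests were chosen with earlier results of these data known. Named genes were all members, up to 4 genes per pathway list that passed in any comparison (with none, the one with the lowest p) and the 5 genes of likest pattern for each of 2 member probe sets. The settings varied were the normalization (quantile, common median), the floor (10th or 40th percentile, or 50 added instead), the filter (none, or all 9 arrays), the variance model (no trend, robust), weights per array, a block for the series of the mouse number, a fit of the 2 groups compared alone, and each array left out.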

Additional observations from a re-analysis of the deposited data

How the results depend on the processing

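Under the 21 alternatives the 4 called differences of Gstm1 and Gstm2 kept their direction, and each lost its call under some. The causes were not tested. For IGF1R-dnPI3K against IGF1R, where 3 probe sets passed, 1 passed with no filter and 0 with only the 2 groups compared (1.80% of all probe sets passed in that fit). In the same comparison 2 passed after quantile normalization or with no variance trend (12.7% and 8.32% of all). After scaling to a common median, with a floor at the 40th percentile or with array weights 4 passed (14.8%, 14.1% and 18.4% of all). For IGF1R-caPI3K against IGF1R, where 0 passed, 4 passed with array weights and 3 with only the 2 groups compared. For IGF1R-caPI3K against IGF1R-dnPI3K, where 1 passed, 0 passed after scaling to a common median, with no filter, with no variance trend or with only the 2 groups compared. For the F test, where 1 passed, 2 passed after quantile normalization, after scaling to a common median, with a floor at the 40th percentile or with 50 added in place of a floor, 3 with a filter on all 9 arrays and 5 with array weights, but 0 with no filter or no variance trend. With an array left out the counts ran from 0 to 4 for IGF1R-dnPI3K against IGF1R, 0 to 2 for IGF1R-caPI3K against IGF1R, 0 to 1 between the PI3K groups and 0 to 5 for the F test. The share of all tested probe sets then ran from 0.986% to 23.7%, 0% to 7.03% and 0.128% to 6.87% in these 3 comparisons.

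No paired analysis was possible because the labels give no replicate number that groups share. The first digits of the mouse number in the titles were used as a block instead, though the labels do not say what they mark. Its count was 0 in all 3 comparisons and in the F test, and it passed 0.0633% of all probe sets for IGF1R-dnPI3K against IGF1R. IGF1R-dnPI3K replicates 2 and 3 alone hold their number series, so that difference then rests on replicate 1. The called differences were 0.44 for Gstm1, 0.45 and 0.31 for Gstm2, and -0.28 for Gstm2 between the PI3K groups.

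Calls over all probe sets for IGF1R-dnPI3K against IGF1R numbered 1066 as reported and 137 with only the 2 groups compared. For IGF1R-caPI3K against IGF1R they were 17 as reported, 12 of them higher, and 45 higher and 32 lower after quantile normalization. With only the 2 groups compared, 328 were higher and 409 lower for IGF1R-caPI3K against IGF1R. Under that setting the share passed was thus larger for IGF1R-caPI3K (9.70%) than for IGF1R-dnPI3K (1.80%) against IGF1R, the reverse of the fit as reported.

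Sign changes touched only differences that did not pass. After quantile normalization they were -0.019 for Gstm2 93009_at in IGF1R-caPI3K against IGF1R, 0.031 for Gsta4 in IGF1R-dnPI3K against IGF1R and -0.026 for Gstm5 100631_r_at between the PI3K groups. After scaling to a common median they were 0.089 for Gsta4 in IGF1R-dnPI3K against IGF1R, and -0.041 for Gstm5 100631_r_at and -0.040 for Gsto1 between the PI3K groups. A floor at the 40th percentile gave -0.051 for Gstt2 in IGF1R-caPI3K against IGF1R. Array weights gave 0.081 for Gsta4 in IGF1R-dnPI3K against IGF1R, and 0.029 for Gstm1 161633_r_at and -0.0022 for Gstm5 100631_r_at between the PI3K groups. The number block gave -0.078 for Gsto1 in IGF1R-dnPI3K against IGF1R, and 0.13 for Gstm2 161357_r_at and 0.0041 for Gstt1 between the PI3K groups. With an array left out, IGF1R-caPI3K against IGF1R ran from -0.041 to 0.092 for Gstm2 93009_at, -0.31 to 1.04 for Gstt2, -0.082 to 0.17 for Mgst1, -0.019 to 0.20 for Gstm5 100630_f_at and -0.028 to 0.10 for Gstz1. IGF1R-dnPI3K against IGF1R ran from -0.24 to 0.064 for Gsta4 and -0.050 to 0.17 for Gsto1. The difference between the PI3K groups ran from -0.18 to 0.077 for Gstm2 161357_r_at, -0.11 to 0.15 for Gstm5 100631_r_at and -0.048 to 0.17 for Gsto1.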
